A study of Mus musculus with 55 samples.

Results

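Skil and 9 genes of transforming growth factor beta (TGF-beta) signalling were followed across the ventral dentate gyrus of 54 mice. The 10 genes, Skil, Ski, Smad2, Smad3, Smad4, Smad7, Tgfb1, Tgfb2, Tgfb3 and Inhba, were taken by symbol from the 45318 genes in the count tables. Skil was chosen by its measured counts, which differed between unstressed EE and unstressed SH mice, so every comparison with control mice is a description for Skil and carries no test. The other 9 were chosen by name as its partners in the pathway. All 10 passed the filter on low counts that left 18283 genes for testing.

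The mice were C57/BL6J males placed at weaning age in standard housing (SH) or in an enriched environment (EE), and the tissue was punched from frozen slices, at P90 for the mice that were defeated. In each housing some mice stayed unstressed (control), and the rest went through chronic social defeat stress (CSDS), in which a larger aggressor mouse repeatedly defeats the animal. Defeated mice were split by a social interaction test into resilient (RES) and susceptible (SUS) animals, so RES and SUS are behavioral classes and not treatments. The groups held 10 SH control, 7 SH RES, 10 SH SUS, 9 EE control, 9 EE RES and 9 EE SUS mice, all of the same strain, with no transgene or drug named in the labels. Each library came from 1 mouse, except that EE control mouse 9 was sequenced in 2 runs, which were summed.

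TGF-beta ligands and activins bind paired receptor kinases at the cell surface, which phosphorylate the receptor SMADs Smad2 and Smad3. These join the shared partner Smad4 and enter the nucleus to turn target genes on. Ski and Skil (also called SnoN) are nuclear corepressors that bind the SMAD complex and hold target genes down, and Skil is itself a target, so that it forms a negative feedback loop. Smad7 is another feedback inhibitor that acts at the receptor. In the hippocampus the pathway is known for roles in neuronal survival, synaptic plasticity and the birth of granule neurons, and Skil is known in young neurons for its part in axon growth.

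Between 16760009 and 45872357 read pairs per mouse fell in genes, the highest being the mouse with 2 runs and the next 24426804. All 8 markers of dentate granule cells were expressed in every mouse, with Prox1 at a mean of 141 CPM (counts per 1e6 counts in genes, after scaling) and a range of 79.6 to 209 CPM, which matches the labelled tissue. Markers of neighboring tissue varied between mice. The summed level of choroid plexus markers, 7 of 8 listed being tested, stayed between 17.5 and 24.7 CPM in SH RES mice and reached 984 CPM in SH control mice. Its highest value was 362 CPM in SH SUS, 341 CPM in EE control, 305 CPM in EE RES and 538 CPM in EE SUS mice. In bulk tissue a lower value can come from fewer cells of a type or from less RNA per cell, and these cannot be told apart.

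Skil lies on the plus strand at chr3:31095058-31122577 (GRCm38, GENCODE M21, ENSMUSG00000027660), and no other annotated gene overlaps it. Per kilobase of exon, its level over the 54 mice was 13.7 ± 0.899 CPM per kb (SD). Ski (18.2 ± 2.07) and Smad3 (18.2 ± 2.38) stood higher on this scale, and Smad4 (13.7 ± 0.690) was level with Skil. Tgfb2 followed with 7.36 ± 0.707 CPM per kb, then Smad2 with 3.70 ± 0.196, Tgfb3 with 2.56 ± 0.441 and Smad7 with 2.17 ± 0.285. Inhba (0.267 ± 0.0513) and Tgfb1 (0.114 ± 0.0370) were near the floor of the assay, and Tgfb1 had only 3 to 24 read pairs per mouse. Tgfb2 was thus the leading TGF-beta ligand transcript of this tissue per length, and the corepressors Ski and Skil stood near Smad3 and Smad4 and above Smad2.

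Skil was lower in EE than in SH mice in each of the 3 phenotypes, though the difference in control mice is the one that chose the gene. In SH control mice Skil ranged from 133 to 151 CPM with a median of 140, and in EE control mice from 120 to 135 CPM with a median of 125. In SH RES mice it ranged from 129 to 146 CPM (median 140), and in EE RES mice from 119 to 137 CPM (median 128). In SH SUS mice it ranged from 121 to 147 CPM (median 139), and in EE SUS mice from 116 to 137 CPM (median 123). The groups overlapped in all 3 phenotypes, with the EE mice filling the low end and the SH mice the high end of the scale.

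**Figure D1:**
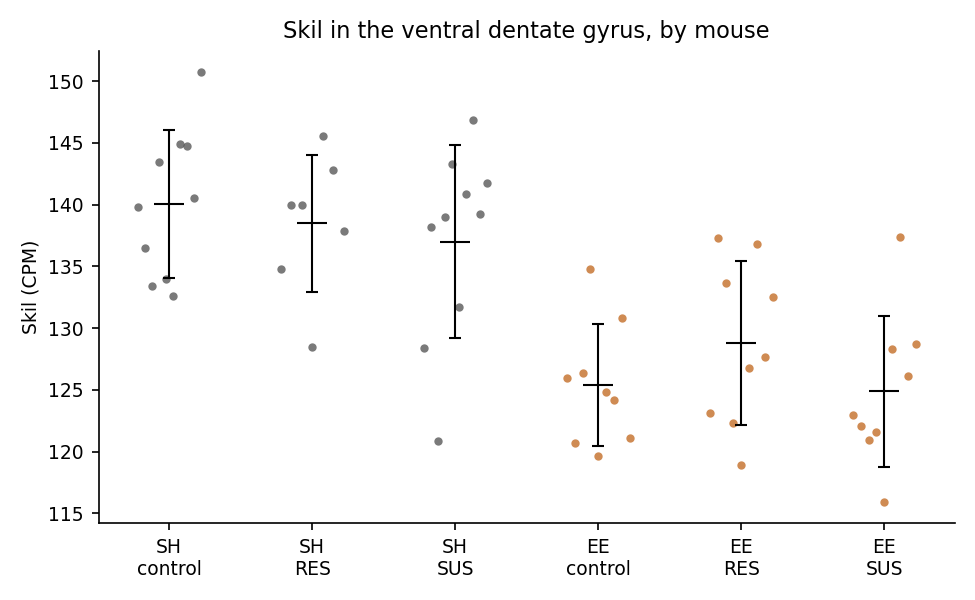
Skil in CPM (vertical axis, which does not start at 0) for each of the 54 mice by group, with SH mice in grey and EE mice in orange. Black bars give the mean and SD. The SH group means lie at 137 to 140 CPM and the EE group means at 125 to 129 CPM.

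By group mean, the order was SH control (140 ± 5.97 CPM, SD, n = 10), SH RES (138 ± 5.56, n = 7), SH SUS (137 ± 7.79, n = 10), EE RES (129 ± 6.63, n = 9), EE control (125 ± 4.92, n = 9) and EE SUS (125 ± 6.13, n = 9). Neighbors in this order within a housing differed by less than their SDs, whereas the step from SH SUS to EE RES was larger than the SD of either group. In control mice, whose values chose the gene, 8 of 9 EE mice lay below every SH mouse and the difference was −0.16 on the log2 scale (SE 0.032), or −10.6%.

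The test of housing for Skil rests on the defeated mice, which were not used to choose it. Over RES and SUS mice Skil had a median of 139 CPM in 17 SH mice (121 to 147) and 126 CPM in 18 EE mice (116 to 137). All 18 EE mice fell below the SH median, and 1 of 17 SH mice fell below the EE median. Skil was lower in EE mice by 7.70% (95% interval −10.7% to −4.57%), a log2 difference of −0.12 (SE 0.024, adjusted p = 0.00961 by the quasi-likelihood test of edgeR over 18283 genes). It was the only one of the 10 genes called in this comparison, in which 2.25% of all genes tested were called, 1.32% as lower and 0.935% as higher in EE. The call held when each of the 54 mice was left out in turn, with an adjusted p of at most 0.0198, and limma-voom and DESeq2 called it as well (adjusted p = 0.00932 and 0.00110).

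Split by phenotype, the difference between EE and SH mice was −0.10 in RES mice (SE 0.035, adjusted p = 0.151) and −0.13 in SUS mice (SE 0.032, adjusted p = 0.329) in the same edgeR fit, neither of which passed over all genes. As a single gene, an exact two-sided permutation test on log2 CPM gave p = 0.0114 in RES and p = 0.00247 in SUS mice (adjusted p = 0.0227 and 0.00987 over the 4 comparisons of defeated mice so tested). All 9 EE mice lay below the SH median in each phenotype. Whether the housing difference itself depended on phenotype was tested by the interaction term, which was −0.03 (95% interval −0.13 to 0.06, adjusted p = 0.984).

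Skil did not separate SUS from RES mice at this depth and group size. In SH mice the log2 difference SUS minus RES was −0.01 (95% interval −0.08 to 0.06, adjusted p = 0.978 by edgeR, exact permutation p = 0.775), and in EE mice −0.04 (−0.11 to 0.02, adjusted p = 0.9997 by edgeR, exact permutation p = 0.198). Against control mice, which the choice of Skil used, the values are a description. RES mice stood at −0.02 (SE 0.035) and SUS mice at −0.03 (SE 0.031) against SH controls, and at 0.04 (SE 0.033) and −0.00 (SE 0.033) against EE controls. Each of these 4 differences was smaller than the housing difference.

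Markers of dentate granule cells moved with Skil over the defeated mice. Each marker list was scored per mouse as the mean z-score of its genes, and Skil was compared with 13 such scores in the 35 defeated mice, which were not used to choose it, a set taken after the data were seen. For the granule cell score Pearson's r was 0.578 (permutation p = 0.00021, adjusted p = 0.00136) and Spearman's rho 0.628 (permutation p = 6e-05, adjusted p = 0.00039), and r was 0.682 without the 2 mice farthest on the score. It was 0.672 within 17 SH mice, 0.233 within 18 EE mice and 0.479 after group means were removed. Over all 54 mice, as a description, r was 0.528. The mouse with the lowest Skil level of the SH mice, SH SUS mouse 3 at 121 CPM, also had the lowest granule score of that housing, −1.57.

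**Figure D2:**
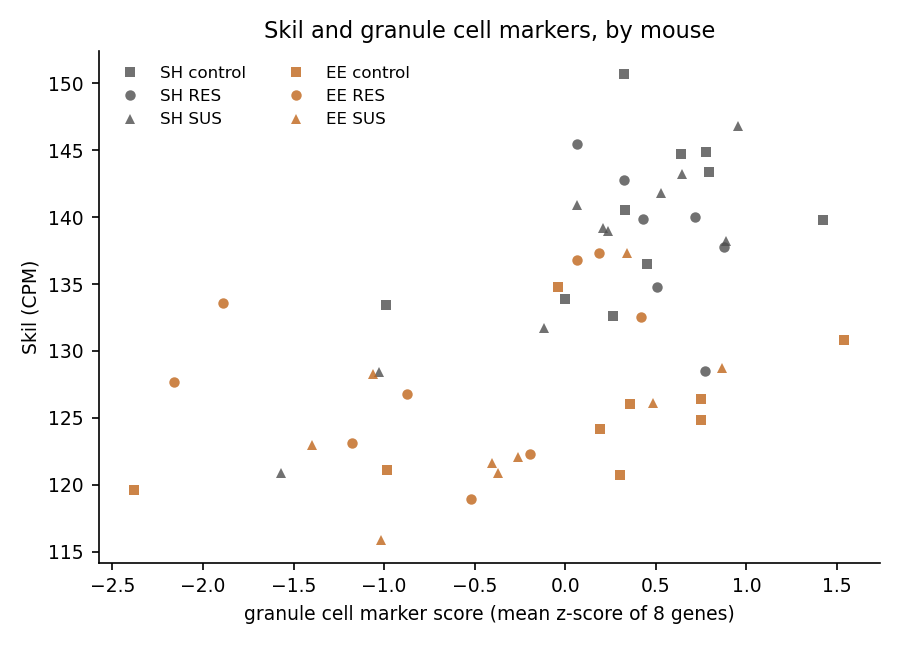
Skil in CPM (vertical axis) against the granule cell marker score (horizontal axis, mean z-score of 8 genes) for each of the 54 mice, with SH mice in grey, EE mice in orange, and squares, circles and triangles for control, RES and SUS. As a description over control and defeated mice together, r is 0.616 in the 27 SH mice and 0.284 in the 27 EE mice.

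Of the 8 granule markers 1 was called lower in defeated EE mice by edgeR (1.32% of all genes were called lower), and 6 had an unadjusted p below 0.05, against 19% of all genes. All 8 lay below 0, with a median log2 difference of −0.20. By phenotype, 7 of 8 had an unadjusted p below 0.05 by edgeR in RES mice (16% of all genes), with a median of −0.32. In SUS mice it was 1 of 8 (7.36%), with a median of −0.11, and in control mice 0 of 8 (5.02%), with a median of −0.09. Skil had the other order, from −0.10 in RES to −0.13 in SUS and −0.16 in control mice, which chose it. The summed level of the 8 markers ran from 1092 to 1279 CPM in SH RES, 775 to 1276 in SH SUS, 701 to 1142 in EE RES and 803 to 1268 in EE SUS mice.

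Oligodendrocyte markers lay on the other side. Of 6 genes 3 were called higher in defeated EE mice by edgeR (0.935% of all genes were called higher), and all 6 had an unadjusted p below 0.05. Their score correlated with Skil over the 35 defeated mice at r = −0.680 (permutation p = 2e-05, adjusted p = 0.00026) and rho = −0.702 (permutation p = 1e-05, the smallest these permutations can give, adjusted p = 0.00013), with r = −0.647 without the 2 farthest mice. It was −0.660 within SH, −0.423 within EE and −0.519 with group means removed. The summed oligodendrocyte level ran from 992 to 1272 CPM in SH RES, 957 to 2310 in SH SUS, 1180 to 1903 in EE RES and 1230 to 2142 in EE SUS mice.

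The score of thalamus markers also passed for both coefficients, with r = −0.552 (permutation p = 0.00064, adjusted p = 0.00277), rho = −0.568 (permutation p = 0.00051, adjusted p = 0.00221) and r = −0.559 without the 2 farthest mice. It was −0.848 within SH, −0.354 within EE and −0.491 with group means removed. The summed thalamus level ran from 75.8 to 241 CPM in SH RES, 62.4 to 321 CPM in SH SUS, 43.1 to 459 CPM in EE RES and 85.8 to 412 CPM in EE SUS mice. CA3 pyramidal cells passed for rho (−0.409, permutation p = 0.0149, adjusted p = 0.0483) and not for r (−0.368, permutation p = 0.029, adjusted p = 0.0944), with r = −0.442 without the 2 farthest mice, −0.486 within SH, −0.140 within EE and −0.264 with group means removed. The other 9 lists did not pass, among them endothelial cells (r = −0.308, permutation p = 0.0734, adjusted p = 0.172, and −0.0576 with group means removed) and immediate early genes, which follow recent neuronal activity (r = −0.0732, permutation p = 0.676, adjusted p = 0.733). For immediate early genes r was −0.501 within SH and 0.351 within EE, and this difference in sign was not tested.

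With the granule cell score as a covariate, a fit added after the data were seen, the housing difference of Skil in defeated mice was −0.08 (SE 0.023) and no longer passed over all genes (adjusted p = 0.187 by edgeR). With granule cell and oligodendrocyte scores together it was −0.09 (SE 0.024, adjusted p = 0.221), and with choroid plexus and thalamus scores −0.10 (SE 0.024, adjusted p = 0.0217). With the granule cell score alone the number of genes called among all 18283 went from 412 to 8. In SUS mice the difference with this covariate was −0.12 (SE 0.029), in RES mice −0.05 (SE 0.035) and in control mice −0.15 (SE 0.029). The summed granule level of control mice ran from 885 to 1398 CPM in SH and from 668 to 1421 CPM in EE.

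Among the 4 ligand genes of the members, Tgfb3 showed the largest housing difference in defeated mice. Tgfb3 lies at chr12:86056745-86079041 on the minus strand and overlaps Ttll5 on the other strand, so the strand-specific counts used here keep the 2 genes apart. It ranged from 6.32 to 11.7 CPM (median 8.06) in 17 SH mice and from 6.63 to 12.1 CPM (median 9.82) in 18 EE mice. The ranges overlapped almost fully, but 15 of 18 EE mice lay above the SH median and 16 of 17 SH mice below the EE median. The difference was 0.26 on the log2 scale (SE 0.076, adjusted p = 0.05004 by edgeR), just above the threshold of 0.05. DESeq2 put it at an adjusted p of 0.0255 and limma-voom at 0.0570, and 18 of the 54 fits that left out 1 mouse called it. With the granule cell score as a covariate the difference was 0.11 (SE 0.062, adjusted p = 0.558).

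Between EE and SH RES mice 0.17% of all genes had groups that did not overlap, and none of the 10 was among them. In RES mice alone, Tgfb3 ranged from 6.65 to 8.26 CPM (median 7.96) in SH and from 7.98 to 12.1 CPM (median 9.93) in EE. The log2 difference there was 0.40 (SE 0.112, adjusted p = 0.0690 by edgeR, 0.0328 by DESeq2), against 0.11 (SE 0.102, adjusted p = 0.857) in SUS and 0.12 (SE 0.101, adjusted p = 0.982) in control mice. The difference between RES and SUS mice in this effect was −0.29 (SE 0.151, adjusted p = 0.977) and did not pass. None of the 10 genes was called in RES mice, where 0.273% of all genes were (0.164% as lower in EE), or in SUS mice, where 0.00547% were. By DESeq2 1 was called in RES mice, Tgfb3, and none in SUS mice, and by limma-voom none in either. At an unadjusted p below 0.05 by edgeR there were 2 of the 10 in RES mice (Skil and Tgfb3), against 16% of all genes, and 1 in SUS mice (Skil), against 7.36%.

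**Figure D3:**
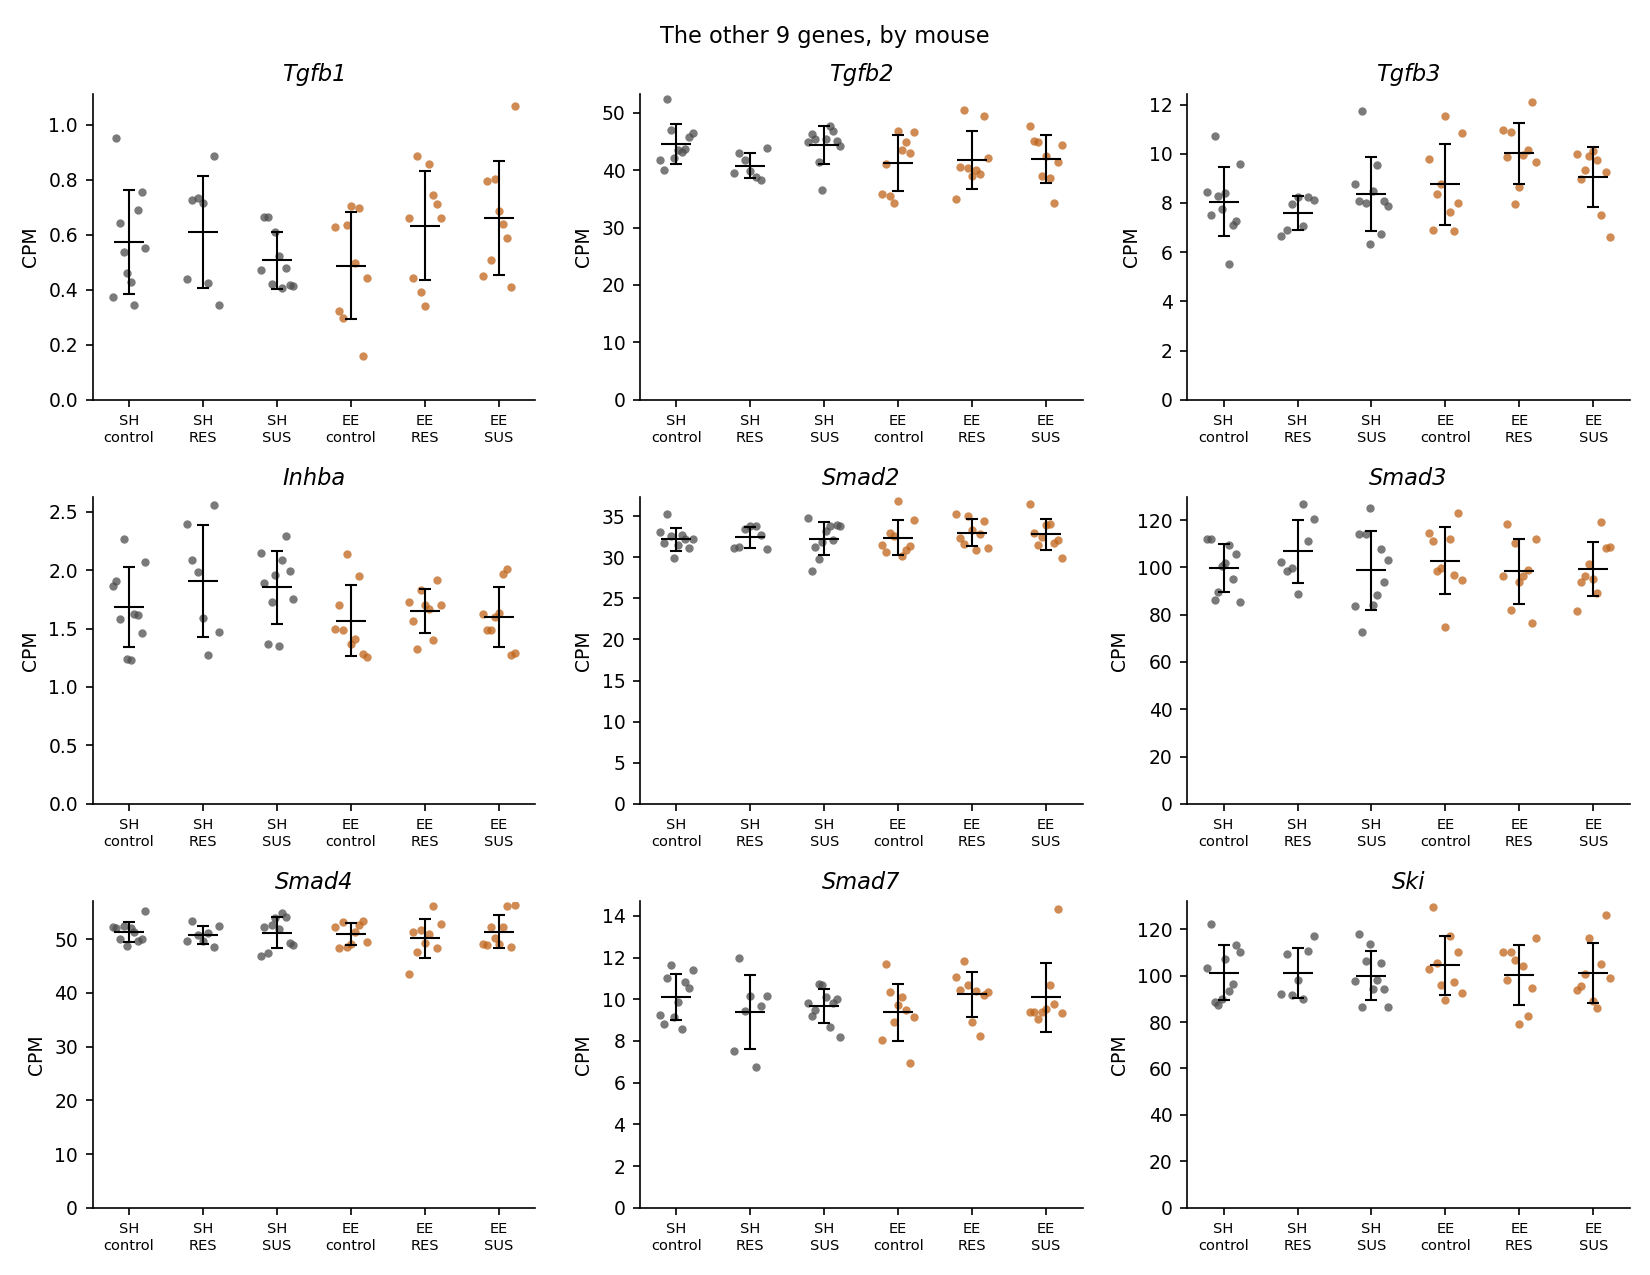
CPM (vertical axes, each from 0) of the other 9 genes for each mouse by group, with SH in grey, EE in orange, and bars for the mean and SD. Tgfb3 sits higher in EE RES mice (7.98 to 12.1 CPM) than in SH RES mice (6.65 to 8.26 CPM), and the groups of the remaining 8 genes overlap. For Tgfb2, 8 of 10 SH SUS mice lie above every SH RES mouse and 1 lies below every SH RES mouse.

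Inhba, which encodes the subunit of activin A, was low in all mice. It ranged from 1.27 to 2.56 CPM (median 1.96) in 17 SH and from 1.28 to 2.01 CPM (median 1.63) in 18 EE defeated mice, and 6 SH mice lay above every EE mouse. Its difference of −0.21 (SE 0.092, p = 0.0262 by edgeR) did not pass over all genes (adjusted p = 0.194). Tgfb2 had medians of 43.9 CPM in SH and 41.0 CPM in EE defeated mice and a difference of −0.02 (SE 0.046, adjusted p = 0.876). For Tgfb1 the medians were 0.478 and 0.661 CPM and the difference 0.22 (95% interval −0.09 to 0.53, adjusted p = 0.445), and DESeq2 gave it no adjusted p.

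None of the 4 SMADs among the members was called, and the intervals of Smad3 and Smad7 were wider than those of Smad2 and Smad4. Smad2 had medians of 32.7 CPM in both housings among defeated mice, with a log2 difference of 0.03 (95% interval −0.03 to 0.08), and Smad4 had medians of 51.1 CPM in SH and 50.6 CPM in EE, with a difference of −0.00 (−0.06 to 0.05). Smad3 had medians of 102 and 96.3 CPM and a difference of −0.05 (−0.18 to 0.07). The inhibitor Smad7 had medians of 9.83 and 9.98 CPM and a difference of 0.10 (−0.03 to 0.22), and the adjusted p of these 4 SMADs lay between 0.421 and 0.9749 by edgeR. Ski, the paralog of Skil, ranged from 86.5 to 118 CPM in SH and from 79.1 to 126 CPM in EE mice, with a difference of 0.01 (−0.10 to 0.12, adjusted p = 0.973). The intervals of Smad2, Smad4, Smad7, Tgfb1, Tgfb2, Tgfb3 and Ski exclude a decrease as large as the estimate for Skil, and those of Smad3 and Inhba do not.

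**Figure D4:**
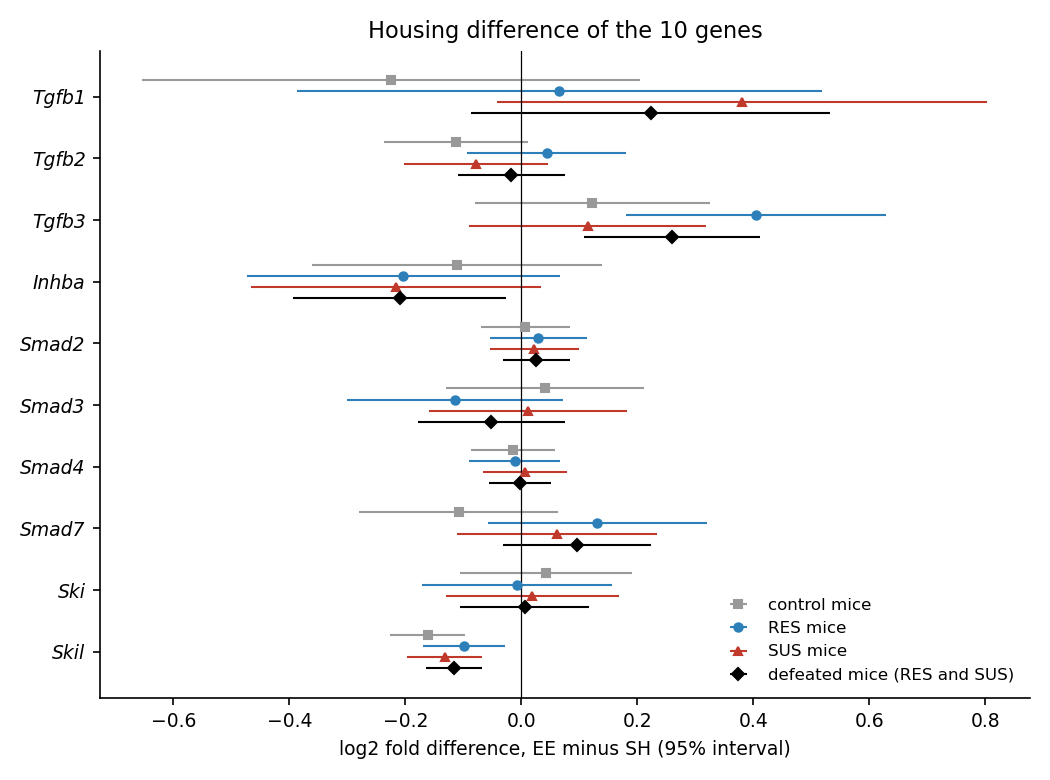
Log2 fold difference EE minus SH (horizontal axis) with 95% intervals from the edgeR fit for the 10 genes in control, RES, SUS and all defeated mice. Skil lies below 0 in all 4 comparisons, from −0.10 to −0.16 (control mice chose it, so its interval there is no test), and Tgfb3 lies above 0, from 0.11 to 0.40.

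Social defeat and phenotype moved none of the members past the threshold. For SUS against RES mice, none of the 10 was called in SH, in EE or in the interaction, by edgeR, limma-voom or DESeq2, and none had an unadjusted p below 0.05 by edgeR. Over all genes tested, 0% were called in each of these 3 comparisons, and 4.88%, 3.52% and 4.84% had an unadjusted p below 0.05. The differences farthest from 0 were those of Tgfb1 in SH mice (−0.25, SE 0.229), Tgfb3 in EE mice (−0.15, SE 0.103) and Tgfb1 in the interaction (0.32, SE 0.309). In SH mice 8 of 10 SUS mice had more Tgfb2 than every RES mouse, and 1 had less than every RES mouse. Tgfb2 is named here after its values were seen.

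Against control mice, none of the 9 genes other than Skil was called by any of the 3 tools. The share of all genes called by edgeR was 0% for RES against control in SH and in EE, 0.0328% and 0% for SUS against control in SH and EE, and 0.0438% for defeated against control mice over both housings. The share at an unadjusted p below 0.05 was 3.51% and 7.91% for RES against control in SH and EE, 2.78% and 7.9% for SUS against control in SH and EE, and 4.81% for defeated against control mice. At an unadjusted p below 0.05, edgeR had Tgfb2 lower in SH RES mice than in SH controls (−0.14, SE 0.067, p = 0.0453, adjusted p = 0.9999) and Tgfb1 higher in EE SUS mice than in EE controls (0.43, SE 0.215, p = 0.0487, adjusted p = 0.633). In EE against SH control mice none of these 9 was called by edgeR, limma-voom or DESeq2 and none had an unadjusted p below 0.05, where edgeR called 0.00547% of all genes and 5.02% had an unadjusted p below 0.05. These comparisons share their control mice.

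The wider pathway was read from 7 lists with 85 genes by role, of which 84 were tested. In EE against SH defeated mice 3 of 84 were called by edgeR (Skil and Tgfbr1 lower, Bmp6 higher), and 25 of 84 (29.8%) had an unadjusted p below 0.05, 14 of them higher and 11 lower, against 19% of all genes tested. The median log2 difference of the 84 was 0.00, as over all genes. In the other 11 comparisons edgeR called no pathway gene. At an unadjusted p below 0.05 there were 22.6% of the 84 for EE against SH in RES mice (16% of all genes), 3.57% in SUS mice (7.36%) and 4.76% in control mice (5.02%). The share in control mice counts Skil, which was chosen by this comparison, and is a description. For SUS against RES there were 5.95% in SH (4.88%), 5.95% in EE (3.52%) and 3.57% in the interaction (4.84%). Against controls there were 4.76% for SH RES (3.51%), 3.57% for SH SUS (2.78%), 10.7% for EE RES (7.91%), 14.3% for EE SUS (7.9%) and 11.9% for all defeated mice (4.81%), in comparisons that share controls. Leaving out Skil in control mice, DESeq2 called 2 genes in RES mice (Tgfbr1 and Tgfb3) and 1 for defeated against control mice (Acvr1c).

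**Figure D5:**
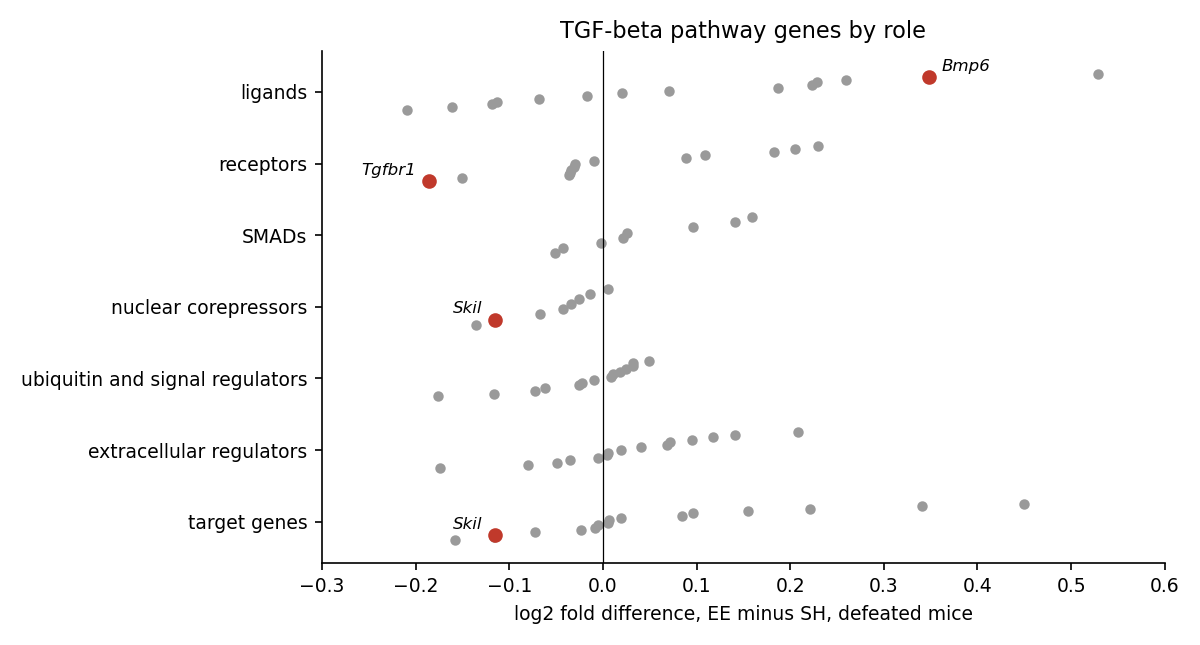
Log2 fold difference EE minus SH in defeated mice (horizontal axis) of the 84 pathway genes tested, in rows by role, with genes at an adjusted p below 0.05 by edgeR in red and the others in grey. Genes of every role lie on both sides of 0, and the 3 called are Bmp6 (0.35), Tgfbr1 (−0.19) and Skil (−0.12, shown under both its roles).

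Tgfbr1, the type I receptor kinase for TGF-beta ligands (chr4:47353222-47414931), was lower in defeated EE mice. It ranged from 45.3 to 69.1 CPM (median 56.1) in SH and from 40.6 to 56.6 CPM (median 50.03) in EE mice, and 17 of 18 EE mice lay below the SH median. The difference was −0.19 (SE 0.051, adjusted p = 0.0371 by edgeR), and it was −0.29 (SE 0.075, adjusted p = 0.0620) in RES, −0.09 (SE 0.068, adjusted p = 0.832) in SUS and −0.01 (SE 0.068, adjusted p = 0.9998) in control mice. The interaction of phenotype and housing was 0.20 (SE 0.101, adjusted p = 0.977). The call held in 41 of 54 fits that left out 1 mouse, with a largest adjusted p of 0.0855 without SH RES mouse 1. It was lost with the granule cell score as a covariate (−0.09, SE 0.043, adjusted p = 0.507) and with choroid plexus and thalamus scores (−0.15, SE 0.046, adjusted p = 0.0687).

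Bmp6, a ligand of the bone morphogenetic protein branch (chr13:38345107-38500302), was higher in defeated EE mice. It ranged from 1.42 to 2.96 CPM (median 1.92) in SH and from 1.73 to 3.60 CPM (median 2.52) in EE mice, and 16 of 18 EE mice lay above the SH median. The difference was 0.35 (SE 0.1005, adjusted p = 0.0476 by edgeR, 0.0581 by limma-voom), against −0.06 (SE 0.132, adjusted p = 0.991) in control mice. SH RES mice had the lowest mean of the 6 groups (1.90 ± 0.2496 CPM, SD, n = 7), at −0.39 (SE 0.147, adjusted p = 0.9999 by edgeR) against SH controls, which did not pass. The call held in 22 of 54 fits that left out 1 mouse, and with the granule cell score as a covariate the difference was 0.33 (SE 0.109, adjusted p = 0.284).

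The 250 bases before the RefSeq start of Tgfbr1 (RefSeq, GRCm38.p6, chr4:47352972-47353221, plus strand) and of Bmp6 (chr13:38345466-38345715, plus strand) are shown because these 2 genes were called beside Skil, with the letters CAGAC, a core of the SMAD binding element searched on both strands (CAGAC and GTCTG), in capitals.
Tgfbr1: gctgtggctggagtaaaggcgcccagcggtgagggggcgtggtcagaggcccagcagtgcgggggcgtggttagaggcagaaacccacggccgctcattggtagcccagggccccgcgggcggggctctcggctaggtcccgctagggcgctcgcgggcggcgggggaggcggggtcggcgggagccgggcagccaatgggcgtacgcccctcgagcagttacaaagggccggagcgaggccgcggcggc
Bmp6: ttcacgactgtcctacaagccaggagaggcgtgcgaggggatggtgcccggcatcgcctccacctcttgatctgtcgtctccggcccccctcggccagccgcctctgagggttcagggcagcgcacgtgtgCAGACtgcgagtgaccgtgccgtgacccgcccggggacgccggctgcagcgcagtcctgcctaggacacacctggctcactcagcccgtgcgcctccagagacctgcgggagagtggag

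The RefSeq start of Bmp6 lies inside the GENCODE gene, which begins at chr13:38345107, so its window lies within the annotated gene that was counted. The Bmp6 window held 1 match, which begins 119 bases before the start, and this Tgfbr1 window, 1 of its 2 in the table, held none. Of the 5 members with a window, Ski, Smad3, Tgfb1, Tgfb2 and Inhba, only Tgfb2 held the letters, at 2 places. Over the pathway lists 31 of 61 genes with a window (50.8%) held at least 1 match in any of their windows. Of all 32851 windows 42.2% held a match. The first share is per gene, and a gene can have more than 1 window, whereas the second is per window, so they cannot be compared. The palindrome GTCTAGAC occurred in none of the pathway windows and in 0.167% of all windows. These matches are a description of the letters in a window.

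Of the other receptors, Acvr1c, the activin receptor ALK7, ran from 58.1 to 95.3 CPM (median 66.4) in SH and from 63.7 to 87.7 CPM (median 80.7) in EE defeated mice, with 17 of 18 EE mice above the SH median. It is named here after its values were seen. Its difference was 0.18 (SE 0.054, adjusted p = 0.0523 by edgeR, 0.0465 by limma-voom and 0.0301 by DESeq2). For defeated against control mice over both housings it was 0.19 (SE 0.045, p = 8.8e-05), which did not pass by edgeR (adjusted p = 0.134) and passed by DESeq2 (adjusted p = 0.0379). Among the 13 receptors 3 were higher and 2 lower at an unadjusted p below 0.05 in EE against SH defeated mice, where 19% of all genes were.

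In the lists of SMADs, ubiquitin and signal regulators and extracellular regulators the gene with the smallest p did not pass by edgeR. Fbn1, a microfibril protein that holds latent TGF-beta in the matrix, had medians of 28.1 CPM in SH and 24.4 CPM in EE defeated mice and a difference of −0.17 (SE 0.054, adjusted p = 0.0617, 0.0365 by DESeq2). Smad9, a SMAD of the bone morphogenetic protein branch, differed by 0.14 (SE 0.055, adjusted p = 0.135), and Trim33, a ubiquitin ligase of Smad4, by −0.06 (SE 0.022, adjusted p = 0.111). Ligands had 7 of 14 genes at an unadjusted p below 0.05 (5 higher, 2 lower), SMADs 1 of 8, corepressors 2 of 8, ubiquitin and signal regulators 4 of 14, extracellular regulators 3 of 15 and target genes 4 of 16, against 19% of all genes. Of the 8 corepressors 7 lay below 0, with a median of −0.04, and the target genes had a median of 0.01.

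No member followed Skil over the 54 mice as closely as the genes most like it, which are named below. Over 54 mice Pearson's r with Skil on log2 CPM was highest for Smad4 (0.390, rho 0.352), Inhba (0.376, rho 0.377) and Smad3 (0.304, rho 0.284), and lowest for Tgfb3 (−0.449, rho −0.470). With group means removed Smad4 stood at 0.537, Smad3 at 0.429 and Tgfb3 at −0.320. The genes most like Skil then stood between 0.456 (Zfp251) and 0.590 (Actr3), so Smad4 lay within their range. By r over the 54 mice, Smad4 ranked 846 from the top among 18165 named genes and Tgfb3 18024, near the opposed end. These values share library, depth and tissue composition and are given as a description.

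The genes most like Skil over the 54 mice were Actr3, a subunit of the actin-branching Arp2/3 complex (r = 0.716, rho 0.715), the translation initiation factor Eif4b (0.676, rho 0.675), the histone deacetylase Hdac1 (0.666, rho 0.694), Zfp251 (0.653, rho 0.695) and the neuronal microtubule kinase Dclk1 (0.650, rho 0.647). After group means were removed these r values were 0.590, 0.491, 0.483, 0.456 and 0.488. Hdac1 (−0.17, adjusted p = 0.0108), Zfp251 (−0.09, adjusted p = 0.0388) and Dclk1 (−0.14, adjusted p = 0.00747) were also called lower in defeated EE mice by edgeR, and Actr3 and Eif4b were not (adjusted p = 0.151 and 0.128). The most opposed were Flii (−0.564, rho −0.575), Procr (−0.558, rho −0.577), Trac (−0.556, rho −0.539), Adam19 (−0.555, rho −0.543) and Cryab (−0.548, rho −0.565). Of these, Flii (0.13, adjusted p = 0.0202), Procr (0.60, adjusted p = 0.0371) and Cryab (0.28, adjusted p = 0.0155) were called higher in defeated EE mice by edgeR, and Trac and Adam19 were not (adjusted p = 0.416 and 0.0772). None of these 10 genes is in the pathway lists. They were picked for following or opposing Skil over mice that include the defeated ones, so their calls are a description and not separate tests. Over all genes tested, 1.32% were called lower and 0.935% higher in defeated EE mice.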

How the data were processed

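Each of the 55 libraries has a table of unnormalized counts per gene that the authors made, by their notes, with STAR and Picard on mm10. The deposited tables carry unstranded, forward and reverse columns in the layout of STAR. The reverse-strand counts were used, since the forward column held 3.51% to 4.13% of the stranded gene counts. Rows that name no gene were left out of library sizes: unmapped (13.9% to 19.9% of read pairs), multimapping (8.70% to 12.1%), no feature (19.9% to 28.8%) and ambiguous (0.836% to 1.12%). Of the identifiers 44585 matched a symbol. A median of 21552884 read pairs per mouse fell in genes, which gives little precision for Tgfb1 and Inhba.

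Counts were scaled by TMM, filtered with filterByExpr and tested over all 54 mice in 1 fit by the quasi-likelihood test of edgeR 4.0.16 in R 4.3.3, with Benjamini-Hochberg adjustment over 18283 genes and a threshold of 0.05. CPM were TMM-scaled, and log2 CPM used a prior count of 2. Permutation tests, exact or with 100000 permutations, used scipy 1.17.1. The procedure was tested on simulated data. DESeq2 1.42.0, limma 3.58.1, other scalings and filters, a replicate block and covariates were alternatives.

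The members and lists were chosen with earlier results of these data known. All 10 members were named, with pathway genes past the threshold, the lead gene of each list, and the 5 genes most and 5 least like Skil. Same-numbered mice are different animals, and p-values measure the spread between mice. By the paper's supplement, mice of a housing were raised in shared cages, and EE cages held more mice than SH cages. The labels name no cage, so a difference between cages cannot be told apart from housing, and the p-values do not measure it. The groups came from the labels of the samples.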

Additional observations from a re-analysis of the deposited data

Results flagged for a closer look

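Of 60 combinations of a member and a group, 1 held a mouse that stood apart by Dixon's test at the 95% level, where chance gives about 1 in 20. Smad7 was 14.3 CPM in EE SUS mouse 8, and the other 8 mice of that group lay between 9.03 and 10.7 CPM, with a gap of 0.686 of the whole range against a critical value of 0.493.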

How the results depend on the processing

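In EE against SH defeated mice Skil kept its direction and its call under 10 other settings of scaling, filter, strand, tool, samples and covariates (−0.12 to −0.10) and without any single mouse (−0.13 to −0.11). With the granule cell score, alone or with the oligodendrocyte score, as covariates, both added after seeing the data, it was −0.083 and −0.085 and not called. The 1 member called there became 2, with Tgfb3, under DESeq2 size factors, the filter of 1 CPM in at least 7 mice, DESeq2, the fit of only the groups compared, the replicate block and the first run of EE control mouse 9, and 0 with either granule cell covariate; without 1 mouse it ranged from 1 to 2. The 3 pathway genes called became 1 with no low-count filter or with choroid plexus and thalamus scores, 5 under the filter of 1 CPM, the fit of only the groups compared or the replicate block, 6 under DESeq2 and 0 with either granule cell covariate. Without 1 mouse they ranged from 1, Skil (SH RES 1 and 3, SH SUS 2, 5 and 9, EE RES 3 and 8, EE SUS 2, 3 and 5), to 5 (SH control 3, EE control 5 and 9, EE RES 2 and 9) and 6 (SH SUS 3, EE SUS 9). With unstranded counts only Skil and Tgfbr1 of the pathway genes were called in defeated mice. By limma-voom Skil, Tgfbr1 and Acvr1c were called there and Bmp6 was not. DESeq2 size factors and the first run of EE control mouse 9 added Tgfb3 to the 3 genes. In RES mice the count of members went from 0 to 1 under DESeq2, the replicate block and the choroid plexus and thalamus scores, and that of pathway genes from 0 to 2, 2 and 1, and to 1 without SH control 3, SH RES 5, EE control 5, EE RES 6 or EE RES 9. For defeated against control mice the pathway count went from 0 to 1 under DESeq2 and without EE control 5 or 9. No called value reversed, and the cause of these moves was not tested.

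Same-numbered mice of different groups deviated together only weakly (mean correlation 0.0304 over 126 pairs, −0.00348 for other pairs, and 9 of 54 mice closest to their own number). An average over all pairs cannot settle whether numbers pair the mice, and the labels name no pairing. Under the replicate block the genes called for EE against SH went from 412 to 649 in defeated mice and from 50 to 228 in RES mice. The cause of this rise was not tested. With the replicate block the Skil difference in defeated mice was −0.116 (adjusted p = 0.00481), and Fbn1 was called (adjusted p = 0.0356). Of up to 99 values of the other members per alternative, none was called in the main fit and at most 2 changed their call. Their direction was less stable. With the granule cell score as a covariate 33 of 99 changed sign, and 12 crossed 0 with a shift of at least 1 SE. With granule cell and oligodendrocyte scores these were 27 and 12, with choroid plexus and thalamus scores 13 and 3, and with unstranded counts 8 and 4. Depth limits Tgfb1 most.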
